A study of Homo sapiens with 24 samples.

Results

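The genes described here make up the RNA side of MHC class I antigen presentation in SET2 cells: the heavy chains HLA-B, HLA-C, HLA-E and HLA-F, the light chain B2M, the peptide transporter subunits TAP1 and TAP2, the loading chaperone tapasin (TAPBP) and the transactivator NLRC5. They were chosen by symbol and are 9 of the 25082 genes in the deposited table. All 9 had a normalised count of at least 10 in every library, so none was lost to the filter on low values. SET2, an established human cell line, was derived from megakaryoblasts of a patient with a myeloproliferative neoplasm and depends on JAK2.

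MHC class I molecules carry peptides made inside the cell to its surface, where T cells and natural killer cells read them. A class I molecule is a heavy chain bound to beta-2 microglobulin, the product of B2M, and it is loaded in the endoplasmic reticulum with peptides that the TAP1 and TAP2 transporter brings in and that tapasin helps to fit. HLA-B and HLA-C are classical, highly polymorphic heavy chains, while HLA-E and HLA-F are non-classical ones, and HLA-E is known as a ligand of the natural killer cell receptor pair of CD94 and NKG2A. NLRC5 drives transcription of class I genes from the conserved part of their promoters, and interferons raise the whole pathway through JAK kinases and STAT factors.

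Poly(A) RNA was sequenced in 24 libraries, 8 groups of 3. Naive cells had no inhibitor. Naive cells were also given the vehicle DMSO for 4 h, INC424 for 4 h or INC424 for 48 h, and 4 persistent lines were grown continuously in BMS911543, CYT387, INC424 or SAR302503. INC424 is ruxolitinib, CYT387 is momelotinib, SAR302503 is fedratinib, and BMS911543 is a JAK2-selective inhibitor; all are type I JAK inhibitors. Every group is the same cell line, each inhibitor has 1 persistent line, the labels give no concentrations, and the 48 h cells have no DMSO control of their own time. Whether the 3 libraries of a group came from separate cultures is not stated, so p-values reflect only the spread between them, which may be technical.

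Levels are the deposited normalised counts, which are not divided by gene length, and differences are log2 values fitted by limma with standard errors, called where the Benjamini-Hochberg adjusted p over the 20154 genes tested was below 0.05. Libraries held 21770721 to 36160750 reads in genes. Of 10 megakaryoblast markers looked for, 9 were found, and these were above 0 in every library, at 0.289% to 0.768% of reads. Library 2 of the CYT387 line stood apart: 10 squamous epithelium markers took 0.413% of its reads, 10 stroma markers 0.635% and 8 macrophage markers 0.0518%, and it had the lowest share of megakaryoblast markers. In the other 23 libraries the squamous share reached 0.0999% in library 3 of the SAR302503 line and was at most 0.0284% elsewhere, and stroma and macrophage markers were near 0. Some results that rest on these libraries are given with and without them, and the others with all libraries only.

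HLA genes resemble one another and vary between people, so part of their reads may be assigned to the wrong gene or lost. In the GENCODE reference transcripts, at most 0.600% of the 100-base windows of HLA-B, HLA-C, HLA-E or HLA-F were shared with transcripts of another gene, and at most 6.71% of their 50-base windows. For TAP2 the share was 35.2% at 100 bases, the highest of the 9. These shares do not measure reads lost where alleles differ from the reference. The alleles that SET2 carries were not compared with the reference here.

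The promoters of HLA-B, HLA-C and HLA-F resemble one another, and those of B2M and TAP1 do not resemble them. RefSeq promoter windows on GRCh38.p14 were found for 7 of the 9 genes, and not for HLA-E and NLRC5. Over the 250 bases before the start, HLA-B and HLA-C were 89.0% identical, HLA-B and HLA-F 80.4%, and HLA-C and HLA-F 78.7%, against 47.9% to 51.4% between these heavy chains and B2M or TAP1. The 120 bases from 160 to 41 before the start are printed for these 5 genes, since the region holds the control elements that class I genes share. They lie at chr6:31357220-31357339 (HLA-B, minus strand), chr6:31272133-31272252 (HLA-C, minus), chr6:29723274-29723393 (HLA-F, plus), chr15:44711357-44711476 (B2M, plus) and chr6:32853745-32853864 (TAP1, minus). Capitals mark matches on either strand to the interferon response element core GAAANNGAA, the STAT dimer element TTCNNNGAA, the CCAAT box or the CRE motif TGACG.
HLA-B: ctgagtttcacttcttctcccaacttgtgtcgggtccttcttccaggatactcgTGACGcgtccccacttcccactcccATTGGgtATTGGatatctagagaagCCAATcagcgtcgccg
HLA-C: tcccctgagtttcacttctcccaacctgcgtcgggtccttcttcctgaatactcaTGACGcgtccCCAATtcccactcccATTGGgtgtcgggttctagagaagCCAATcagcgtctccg
HLA-F: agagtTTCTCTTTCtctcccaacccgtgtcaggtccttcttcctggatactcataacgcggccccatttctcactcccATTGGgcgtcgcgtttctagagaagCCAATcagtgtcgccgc
B2M: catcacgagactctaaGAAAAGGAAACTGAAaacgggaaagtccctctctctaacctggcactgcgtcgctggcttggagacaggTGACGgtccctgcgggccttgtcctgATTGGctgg
TAP1: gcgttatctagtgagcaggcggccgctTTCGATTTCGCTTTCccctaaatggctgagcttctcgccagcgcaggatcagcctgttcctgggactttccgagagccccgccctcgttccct

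The 3 heavy chain promoters share a CCAAT box that ends 52 or 53 bases before the start, and HLA-B and HLA-C also share a CRE motif. The interferon element core matched at 2 overlapping places in B2M and in TAP1 and at 1 place in HLA-F. In the windows of TAPBP and TAP2, which are not printed, it matched at 2 overlapping places and at 1 place. Of all 35116 promoter windows, 8.11% hold the interferon element core, 7.66% the STAT dimer element, 34.6% a CCAAT box and 24.6% a CRE motif. The search finds only these fixed letters, so elements that differ from them are left unmarked. The lack of a match to the interferon element core in HLA-B and HLA-C thus does not show that they lack such an element. These matches describe letters only, and no binding was measured.

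The 4 heavy chains moved together across the libraries, and the other genes followed them in part or not at all. Pearson's r between pairs of heavy chains, on log2 values over the 24 libraries, was 0.79 to 0.90, and 0.79 to 0.92 without library 2 of the CYT387 line. B2M had r between 0.25 and 0.55 with the heavy chains, and TAP1 between 0.16 and 0.50. NLRC5, although it acts on class I promoters, had r of only 0.07 to 0.44 with them, and TAP2 had r of -0.62 to -0.28. These are descriptions over libraries that share groups, a size factor and a control, and they carry no p. Reads assigned to the wrong HLA gene may also enter the r between heavy chains, which was not tested.

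**Figure D1:**
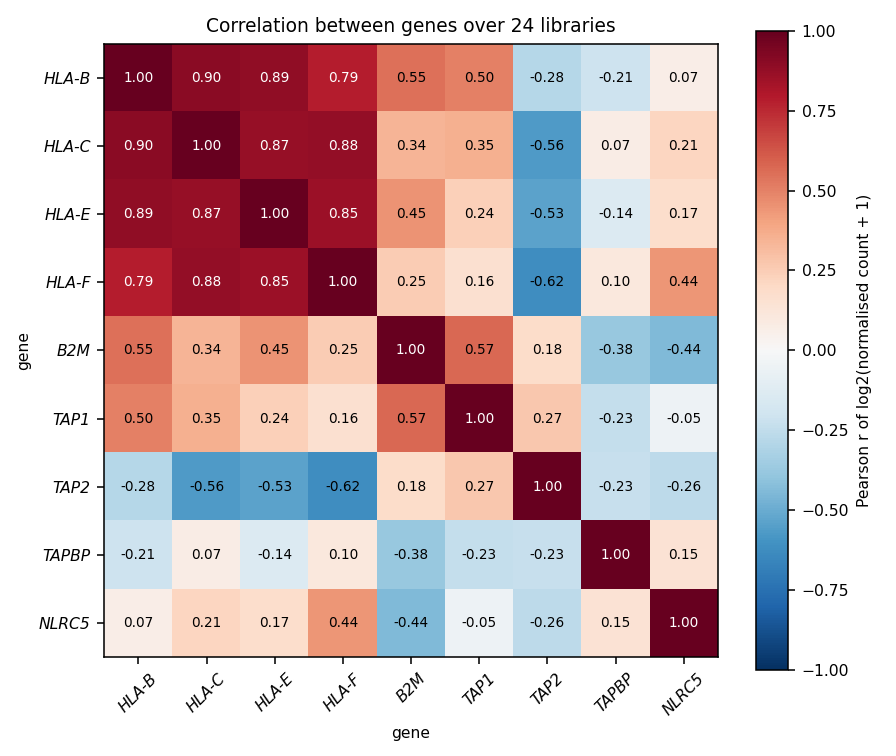
Pearson correlation of log2(normalised count + 1) between each pair of the 9 genes over the 24 libraries, as a colour and a printed value. The 4 heavy chains form a block of values from 0.79 to 0.90 at the top left.

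HLA-E had the widest range of the 9 genes, with its highest group mean 3.54 times its lowest. HLA-E had 31567, 30083 and 34412 normalised counts in naive cells and 30944, 31232 and 32753 after 48 h of INC424. The CYT387 line had 24079, 18257 and 23803, and the SAR302503 line 20602, 18810 and 23708. These 2 lines overlap with each other and lie below the naive and 48 h libraries. INC424 at 4 h gave 14851, 16436 and 15619 HLA-E counts, and the INC424 line 14617, 14442 and 14557. DMSO cells had 10043, 10995 and 11979, and the BMS911543 line 9052, 8912 and 9194, the lowest of all. Of the 7 steps between neighbouring group means, 5 had libraries that did not overlap. The groups were first ordered by mean, and no share over all genes is set beside this count, so it is a description only.

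The ratio of highest to lowest group mean was 2.60 for HLA-F, 2.38 for HLA-B and 2.30 for HLA-C. It was smaller for TAPBP (1.94), TAP1 and B2M (1.84 each), NLRC5 (1.79) and TAP2 (1.39). Without library 2 of the CYT387 line the ratio was 1.59 for TAPBP and 2.12 for NLRC5, which changes their order. The BMS911543 line had the lowest group mean of all 4 heavy chains. The highest was in the SAR302503 line for HLA-B, in naive cells for HLA-E and in 48 h INC424 cells for HLA-C and HLA-F. The HLA-B mean of the SAR302503 line was 106298 with all 3 libraries and 96022 without library 3, against 96213 in naive cells. For HLA-B, HLA-C, HLA-F and B2M 2 of the 7 steps between neighbouring groups were free of overlap, and for TAP2 none was, again as a description only.

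**Figure D2:**
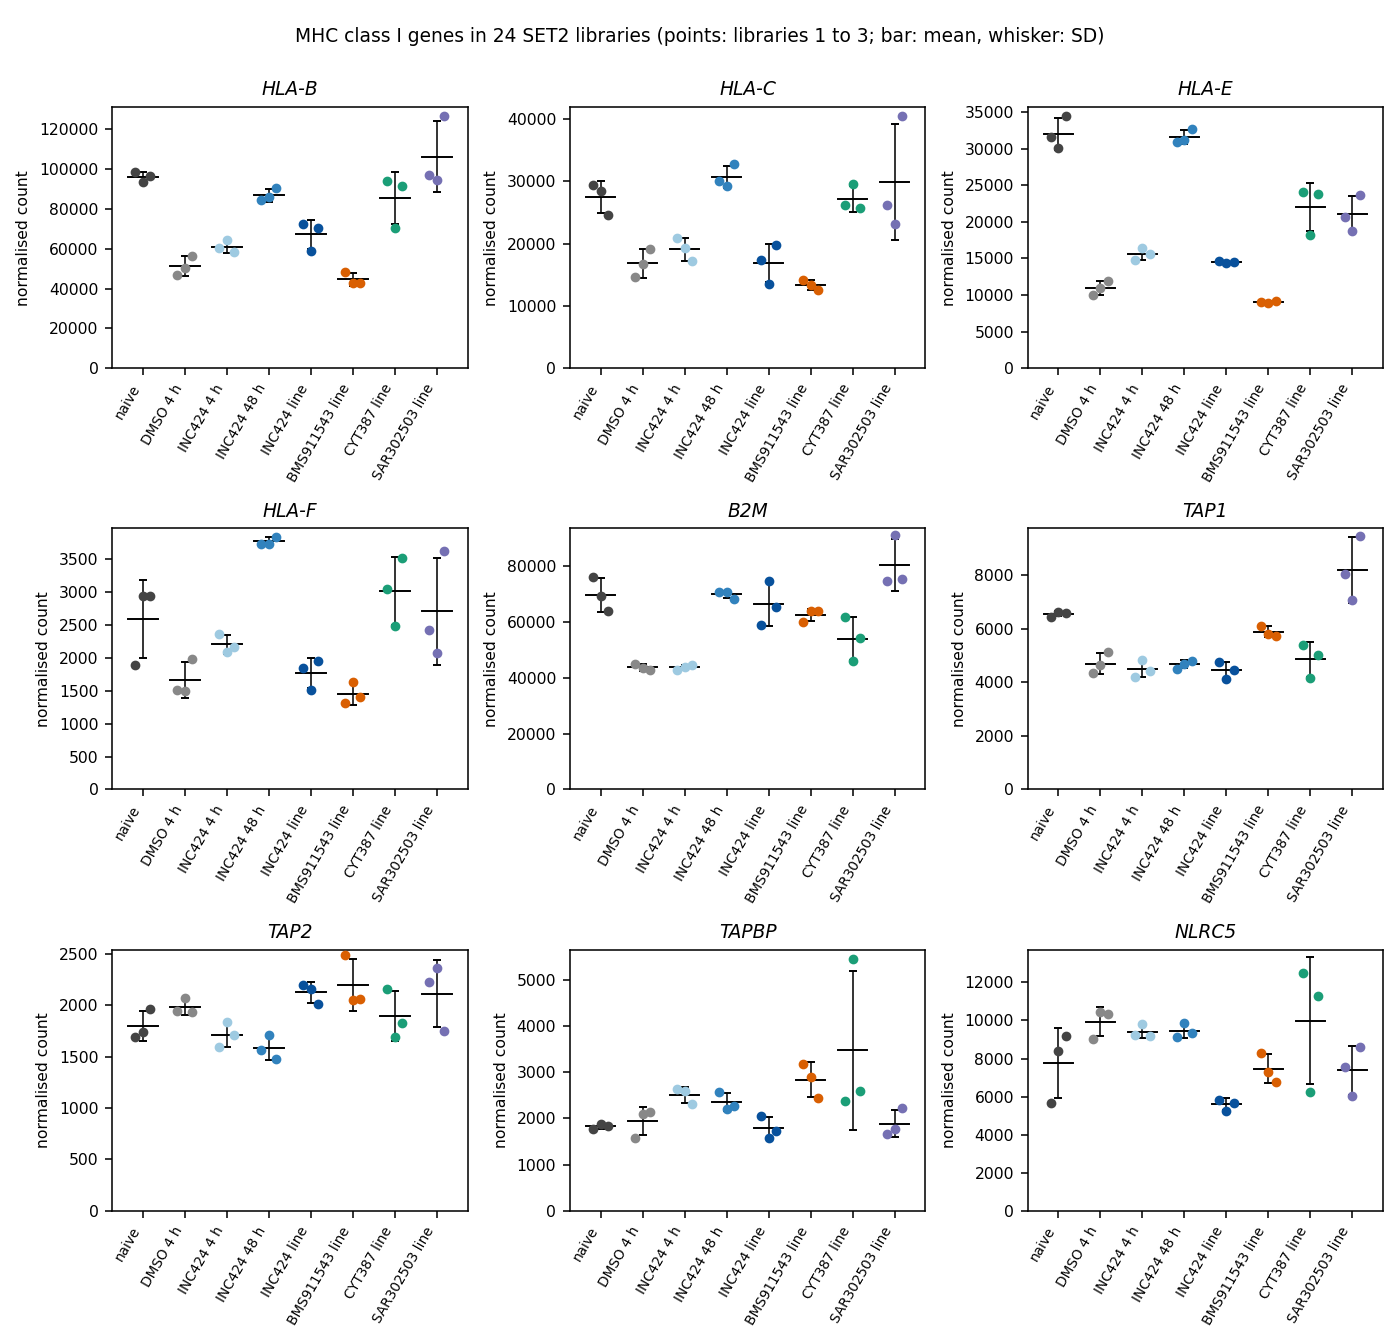
Normalised count (vertical axis, from 0) of each gene in the 3 libraries of each of the 8 groups; bars are means and whiskers SDs. HLA-E runs from about 9052 in the BMS911543 line to 32020 in naive cells, and library 2 of the CYT387 line is the high TAPBP point at 5449.

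The DMSO cells, the vehicle control of the short treatments, already differed from naive cells. HLA-B, HLA-C, HLA-E, HLA-F, B2M and TAP1 were lower in DMSO cells, 6 of 9 genes, while 26.0% of all genes tested passed in either direction. HLA-B was 46723, 50239 and 56513 in DMSO cells against 98673, 93518 and 96449 in naive cells, a log2 difference of -0.92 ± 0.14 (SE, n = 3 and 3, adjusted p = 5.12e-05). No DMSO library reached a naive one. HLA-E differed by -1.54 ± 0.11 (adjusted p = 2.57e-09) and HLA-C by -0.71 ± 0.17 (adjusted p = 0.00328). B2M was 45144, 43481 and 42889 against 76137, 69301 and 63870, lower by a log2 difference of -0.67 ± 0.13 (adjusted p = 0.000476). TAP1 differed by -0.48 ± 0.11 (adjusted p = 0.003). HLA-F differed by -0.62 ± 0.19 (adjusted p = 0.0182), with overlapping libraries, and this call was lost without DMSO library 1 or 2 or without naive library 2 or 3 (adjusted p up to 0.091).

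TAP2, TAPBP and NLRC5 did not pass in that comparison, at log2 0.14, 0.07 and 0.39. The median of the 9 genes was -0.62 against 0.02 for all genes. The megakaryoblast marker list was also lower in DMSO cells, at 0.485% to 0.566% of reads against 0.593% to 0.726%, as was the lymphocyte list, at 0.0045% to 0.0058% against 0.0066% to 0.0079%. The part of these shifts in the class I differences was not tested. The lymphocyte list is carried here by CD79A, NKG7 and GNLY, while the T cell markers CD2 and CD3E had median counts of 2.77 and 5.46. The DMSO group differs from naive cells in vehicle and in handling, which cannot be told apart.

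After 4 h of INC424 only HLA-E passed against DMSO, 1 of 9 genes, with 8.37% of all genes passing. HLA-E was higher by 0.51 ± 0.11 (adjusted p = 0.0061), and all 3 treated libraries lay above the DMSO ones. HLA-B was 60567, 64254 and 58363 after INC424, also above every DMSO library, but the difference of 0.26 (95% interval -0.03 to 0.55) did not pass. HLA-F at 0.42 and TAPBP at 0.38, both higher, and TAP2 at -0.21, lower, did not overlap either and did not pass. TAPBP passed without library 2 of the CYT387 line (adjusted p = 0.0465), which enters through the shared estimate of the spread. B2M differed by 0.00 (interval -0.26 to 0.27). Without the 4 libraries richest in squamous marker RNA, none of them in either group, 4 of 9 genes passed: HLA-E, HLA-B, HLA-F and TAPBP, with 21.8% of all genes.

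After 48 h of INC424 the heavy chains and B2M were higher than in DMSO cells, and the transporter and NLRC5 were not. HLA-B, HLA-C, HLA-E, HLA-F and B2M rose and TAP2 fell, 6 of 9 genes, with 33.9% of all genes passing. HLA-B was 84280, 85789 and 90595 at 48 h, a rise of 0.77 ± 0.14 (adjusted p = 0.000208). HLA-C was 30064, 29301 and 32783 against 14627, 16712 and 19168 with DMSO, a rise of 0.87 ± 0.17 (adjusted p = 0.000345). In both genes the lowest 48 h library lay well above the highest DMSO library. HLA-E rose by 1.53 ± 0.11 (adjusted p = 1.85e-09), which is 2.88-fold.

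HLA-F was 3727, 3730 and 3831 at 48 h against 1509, 1500 and 1977 with DMSO, a rise of 1.19 ± 0.19 (adjusted p = 4.06e-05). B2M was 70848, 70705 and 68494, a rise of 0.68 ± 0.13 (adjusted p = 0.000267). TAP2 was 1570, 1713 and 1476 against 1943, 2069 and 1938, a difference of -0.32 ± 0.12 (adjusted p = 0.0454). The TAP2 call was lost when any of 14 of the 24 libraries was left out in turn, with adjusted p up to 0.16. TAP1 differed by -0.01 (interval -0.24 to 0.23), NLRC5 by -0.07 (interval -0.48 to 0.34) and TAPBP by 0.28 without passing. The median of the 9 genes was 0.68 against 0.00 for all genes.

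The same 5 genes, the heavy chains and B2M, were also higher at 48 h than at 4 h of INC424, where 14.7% of all genes passed. HLA-E rose by 1.02 ± 0.11 (adjusted p = 2.97e-06), HLA-F by 0.77 ± 0.19 (adjusted p = 0.007), HLA-C by 0.69 ± 0.17 (adjusted p = 0.00746) and B2M by 0.67 ± 0.13 (adjusted p = 0.000867). HLA-B rose by 0.51 ± 0.14 (adjusted p = 0.0167), a call lost without library 3 of the 48 h group or library 3 of the 4 h group. TAP1, TAP2, TAPBP and NLRC5 differed by -0.11 to 0.06 and did not pass. The megakaryoblast list was at 0.746% to 0.768% of reads at 48 h against 0.536% to 0.578% at 4 h, and the lymphocyte list at 0.0062% to 0.0068% against 0.0046% to 0.0054%. Their part in the result was not tested.

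Set against naive cells in place of DMSO, the 48 h cells were not higher in HLA-B, HLA-C, HLA-E or B2M. HLA-E differed by -0.015 (adjusted p = 0.944) and HLA-B by -0.15 (adjusted p = 0.511), with B2M at 0.01 and HLA-C at 0.16. HLA-F was higher by 0.57 ± 0.19 (adjusted p = 0.036) and TAP1 lower by -0.49 ± 0.11 (adjusted p = 0.00368). These are 2 of 9 genes, with 20.0% of all genes passing. The 48 h rise of HLA-B, HLA-C, HLA-E and B2M thus depends on the control, since against naive cells it did not pass. None of the heavy chains and not B2M was lower there by a difference that passed. INC424, time in culture and vehicle cannot be told apart in the 48 h result. Both the megakaryoblast and the lymphocyte list were also above all DMSO libraries at 48 h, and their part in the rise was not tested.

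**Figure D3:**
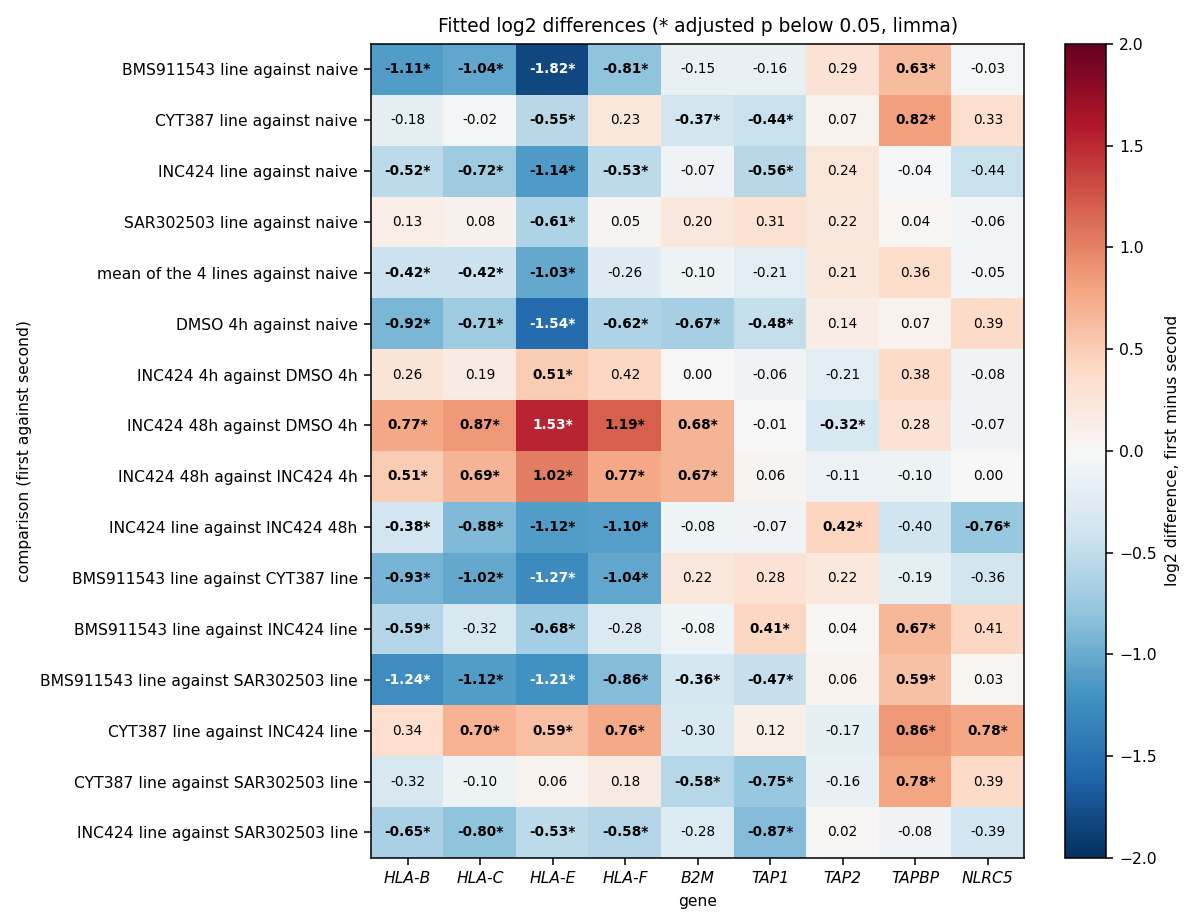
Fitted log2 difference of each gene (columns) in each of the 16 comparisons (rows, first minus second), as a colour and a value, with an asterisk where the adjusted p was below 0.05. The heavy chains are blue in the BMS911543, INC424 and DMSO rows against naive cells and red in the rows of 48 h INC424 against DMSO and against 4 h.

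The BMS911543 line had the lowest group means of all 4 heavy chains. Against naive cells HLA-B, HLA-C, HLA-E and HLA-F were lower and TAPBP higher, 5 of 9 genes, with 24.6% of all genes passing. HLA-B was 48432, 42650 and 42752 in this line, less than any naive library, a difference of -1.11 ± 0.14 (adjusted p = 3.21e-06). HLA-C was 14168, 13332 and 12522 against 29454, 28453 and 24668, a difference of -1.04 ± 0.17 (adjusted p = 7e-05). HLA-E was 3.53-fold lower, at -1.82 ± 0.11 (adjusted p = 5.18e-11). HLA-F was 1314, 1629 and 1406 against 1895, 2931 and 2931, a difference of -0.81 ± 0.19 (adjusted p = 0.00269). B2M, at -0.15 (interval -0.42 to 0.11), and NLRC5, at -0.03 (interval -0.44 to 0.38), did not pass.

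TAPBP was 3183, 2895 and 2432 in the BMS911543 line against 1771, 1868 and 1840, higher by 0.63 ± 0.21 (adjusted p = 0.0341). This call was lost without library 1 or 2 of the line or without any 1 of the naive libraries (adjusted p up to 0.13). TAP1 at -0.16 and TAP2 at 0.29 did not pass. The lymphocyte list was at 0.0021% to 0.0027% of reads in this line, below all naive libraries, and the megakaryoblast list was at 0.431% to 0.474%, so that both lists were lower together with the heavy chains. Their part in the result was not tested. In bulk RNA, fewer cells of a type and less RNA per cell cannot be told apart.

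In the INC424 line HLA-B, HLA-C, HLA-E, HLA-F and TAP1 were lower than in naive cells, 5 of 9 genes, with 22.5% of all genes passing. HLA-E was lower by a log2 difference of -1.14 ± 0.11 (adjusted p = 8.97e-08) and HLA-C by -0.72 ± 0.17 (adjusted p = 0.00308). HLA-C had 17336, 13571 and 19753 in this line, below every naive library. HLA-B, at 72298, 58990 and 70296, differed by -0.52 ± 0.14 (adjusted p = 0.00896). Without library 2 of the INC424 line its difference was -0.43 and no longer passed (adjusted p = 0.0574). TAP1 was 4768, 4105 and 4461 against 6444, 6617 and 6596, a difference of -0.56 ± 0.11 (adjusted p = 0.000741). HLA-F differed by -0.53 (adjusted p = 0.0474), with overlapping libraries, and the call was lost for 18 of the 24 libraries left out in turn. B2M at -0.07 and NLRC5 at -0.44 did not pass, though NLRC5 passed without library 2 of the CYT387 line (adjusted p = 0.0153) or naive library 1. NLRC5 was 5845, 5244 and 5684 in the INC424 line, its lowest group. The megakaryoblast list was at 0.438% to 0.507% of reads in this line and the lymphocyte list at 0.0026% to 0.0033%, both below all naive libraries. The squamous list, at 0.0050% to 0.0284%, lay above the naive maximum of 0.0022%. The part of these lists in the result was not tested.

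In the CYT387 line HLA-E, B2M and TAP1 were lower and TAPBP higher than in naive cells, 4 of 9 genes, with 22.3% of all genes passing. In a fit of only the groups compared none of the 9 genes passed, beside 3.37% of all genes. HLA-E differed by -0.55 ± 0.11 (adjusted p = 0.00153) and TAP1 by -0.44 ± 0.11 (adjusted p = 0.0082). HLA-B, HLA-C and HLA-F, at -0.18, -0.02 and 0.23, did not pass. HLA-B was 94229 and 91374 in libraries 1 and 3, near the naive values, and 70404 in library 2.

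Library 2 of this line decided several values. TAPBP was 2373 and 2589 in libraries 1 and 3 and 5449 in library 2, and its difference was 0.82 ± 0.21 (adjusted p = 0.00867) with that library and 0.44 (adjusted p = 0.0379) without it. B2M was 61945, 46266 and 54262, and its difference of -0.37 (adjusted p = 0.0397) became -0.26 without library 2 and no longer passed. The B2M call was lost for 8 of the 24 libraries left out in turn. NLRC5 was 12491 and 11266 in libraries 1 and 3 and 6231 in library 2, and its difference rose from 0.33, not passing, to 0.64 (adjusted p = 0.0045) without it. The part of the squamous, stroma and macrophage RNA of that library in these values was not tested.

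The SAR302503 line had the fewest class I differences from naive cells of the 4 lines: HLA-E was lower, at -0.61 ± 0.11 (adjusted p = 0.000476), and no other of the 9 genes passed, with 19.3% of all genes passing. HLA-B was 97293, 94751 and 126850, a difference of 0.13 (interval -0.16 to 0.42), and HLA-C was 26214, 23077 and 40519, a difference of 0.08 (interval -0.27 to 0.43). Without library 3 of this line HLA-B was at -0.003 and HLA-C at -0.16, neither passing. HLA-B, HLA-C, HLA-F and TAP1 were highest in library 3, the one with 0.0999% squamous marker reads. TAP1 was 8052, 7055 and 9473, above every naive library, with a difference of 0.31 (adjusted p = 0.0571). TAP1 passed without library 2 of the SAR302503 line or without library 1 or 2 of the CYT387 line. Without library 3 of the SAR302503 line the TAP1 difference fell to 0.20 (adjusted p = 0.22). TAP2, at 0.22, passed without library 3 of the line, at 0.36. In all 3 libraries of the line the squamous list, at 0.0071% to 0.0999%, lay above the naive libraries, and the megakaryoblast list, at 0.430% to 0.585%, below them. Their part in the result was not tested.

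Averaged over the 4 lines, HLA-B, HLA-C and HLA-E were lower than in naive cells, 3 of 9 genes, with 21.8% of all genes passing. HLA-E differed by -1.03 ± 0.09 (12 libraries of 4 lines against 3, adjusted p = 1.44e-08) and was lower in all 12 libraries of the lines than in any naive library. The SEs and p-values of this average come from the spread of libraries within groups. The spread between the 4 lines, for HLA-E from -0.55 in the CYT387 line to -1.82 in the BMS911543 line, does not enter them. HLA-B differed by -0.42 ± 0.11 (adjusted p = 0.00848) and HLA-C by -0.42 ± 0.13 (adjusted p = 0.0254), with libraries that overlap. The HLA-C call was lost without naive library 1 or 2. Without the 4 libraries richest in squamous marker RNA 6 genes passed, with 34.6% of all genes, the added ones being TAP1 (-0.20), TAP2 (0.25) and TAPBP (0.26). All of these comparisons share the 3 naive libraries.

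The lines were then set against each other, since a call in one and not in another does not show a difference. The lymphocyte list was at 0.0021% to 0.0027% of reads in the BMS911543 line and at 0.0026% to 0.0033% in the INC424 line. It was higher in the CYT387 line, at 0.00508% to 0.00565%, and in the SAR302503 line, at 0.0060% to 0.0086%, and its part in these differences was not tested. The BMS911543 line had less HLA-B, HLA-C, HLA-E and HLA-F than the CYT387 line, 4 of 9 genes, with 31.4% of all genes passing. The differences ran from -1.27 ± 0.11 for HLA-E to -0.93 ± 0.14 for HLA-B. Against the SAR302503 line the same 4 heavy chains, B2M and TAP1 were lower in the BMS911543 line and TAPBP higher, 7 of 9 genes, with 25.5% passing. HLA-B differed by -1.24 ± 0.14 (adjusted p = 9.31e-07) and TAP1 by -0.47 ± 0.11 (adjusted p = 0.00395). The calls for B2M (-0.36, adjusted p = 0.0427) and TAPBP (0.59, adjusted p = 0.0447) were each lost for 15 of the 24 libraries left out in turn.

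Between the BMS911543 and INC424 lines HLA-B and HLA-E were lower and TAP1 and TAPBP higher in the first, 4 of 9 genes, with 16.5% of all genes passing. HLA-E differed by -0.68 ± 0.11 (adjusted p = 0.000179) and HLA-B by -0.59 ± 0.14 (adjusted p = 0.0054). TAP1 differed by 0.41 ± 0.11, a call lost without library 1 of the BMS911543 line or library 2 of the INC424 line. TAPBP differed by 0.67 ± 0.21, a call lost without library 1 or 2 of the BMS911543 line or library 2 or 3 of the INC424 line. HLA-C, at -0.32 (interval -0.68 to 0.03), did not pass.

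The CYT387 line had more HLA-C, HLA-E, HLA-F, TAPBP and NLRC5 than the INC424 line, 5 of 9 genes, with 24.4% of all genes passing. HLA-F differed by 0.76 ± 0.19 (adjusted p = 0.00488) and HLA-C by 0.70 ± 0.17 (adjusted p = 0.00402). NLRC5 differed by 0.78 ± 0.20 (adjusted p = 0.00582) and by 1.09 without library 2 of the CYT387 line. TAPBP fell from 0.86 to 0.48 without that library, and HLA-B rose from 0.34, not passing, to 0.47 (adjusted p = 0.007).

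Against the SAR302503 line the CYT387 line had less B2M and TAP1 and more TAPBP, 3 of 9 genes, with 26.3% of all genes passing. In a fit of only these groups none of the 9 genes passed, beside 3.51% of all genes. TAP1 differed by -0.75 ± 0.11 (adjusted p = 3.85e-05) and B2M by -0.58 ± 0.13 (adjusted p = 0.00193). TAPBP differed by 0.78 and by 0.41 without library 2 of the CYT387 line, and NLRC5 by 0.39, not passing, and by 0.70 (adjusted p = 0.00154) without it. HLA-C, HLA-E and HLA-F differed by -0.10 to 0.18 and did not pass. Without the 4 libraries richest in squamous marker RNA 6 genes passed, beside 38.2% of all genes, with HLA-E at 0.28, HLA-F at 0.54 and NLRC5 at 0.82.

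The INC424 line had less HLA-B, HLA-C, HLA-E, HLA-F and TAP1 than the SAR302503 line, 5 of 9 genes, with 12.7% of all genes passing. TAP1 differed by -0.87 ± 0.11 (adjusted p = 9.44e-06), HLA-C by -0.80 ± 0.17 (adjusted p = 0.00239), HLA-B by -0.65 ± 0.14 (adjusted p = 0.00283) and HLA-E by -0.53 ± 0.11 (adjusted p = 0.00286). HLA-F differed by -0.58 (adjusted p = 0.045), and by -0.35 without library 3 of the SAR302503 line, where it no longer passed. That call was lost for 16 of the 24 libraries left out in turn.

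The INC424 line also stood below the cells given INC424 for 48 h. HLA-B, HLA-C, HLA-E, HLA-F and NLRC5 were lower in the line and TAP2 higher, 6 of 9 genes, with 29.9% of all genes passing. HLA-E differed by -1.12 ± 0.11 (adjusted p = 1.06e-07), HLA-F by -1.10 ± 0.19 (adjusted p = 0.000108) and HLA-C by -0.88 ± 0.17 (adjusted p = 0.000369). NLRC5 was 9114, 9845 and 9366 at 48 h, above all libraries of the line, a difference of -0.76 ± 0.20 (adjusted p = 0.00541). B2M did not pass, at -0.08 (interval -0.35 to 0.18). HLA-B (-0.38, adjusted p = 0.0482) was lost for 18 of the 24 libraries left out in turn, and TAP2 (0.42 ± 0.12) without library 3 of the 48 h group. The megakaryoblast and lymphocyte lists were both lower in the line than in every 48 h library, and their part in the result was not tested.

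Some differences that did not pass with all libraries passed when 1 was left out. Library 2 of the CYT387 line enters every comparison through the shared estimate of the spread, and without it NLRC5 passed in DMSO against naive cells (0.39), in the BMS911543 line against the CYT387 line (-0.67) and the INC424 line (0.41), and in the INC424 line against the SAR302503 line (-0.39). TAPBP then also passed in the INC424 line against 48 h (-0.40). Without library 3 of the SAR302503 line TAP2 passed in the BMS911543 line against naive cells, TAP1 and TAP2 in the mean of the lines, and TAP1 between the BMS911543 and CYT387 lines. That last one also passed without library 2 of the SAR302503 line or library 1 of the CYT387 line. HLA-F passed in the mean of the lines without naive library 1, and B2M between the CYT387 and INC424 lines without library 1 of the CYT387 line.

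The heavy and light chain thus differed in how they moved, which shows in their ratio within each library. Gene length cancels when this ratio is compared between groups. The log2 ratio of HLA-B to B2M was -0.49 ± 0.16 (SD, n = 3) in the BMS911543 line, below every library of the CYT387 line at 0.65 ± 0.08 and of naive cells at 0.47 ± 0.11. It was 0.22 ± 0.17 in DMSO cells, 0.31 ± 0.08 after 48 h of INC424 and 0.02 ± 0.33 in the INC424 line. For HLA-E the log2 ratio was -2.79 ± 0.06 in the BMS911543 line against -1.12 ± 0.20 in naive cells, with the DMSO cells between them at -2.0 ± 0.16. These ratios are given as a description, with no test.

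**Figure D4:**
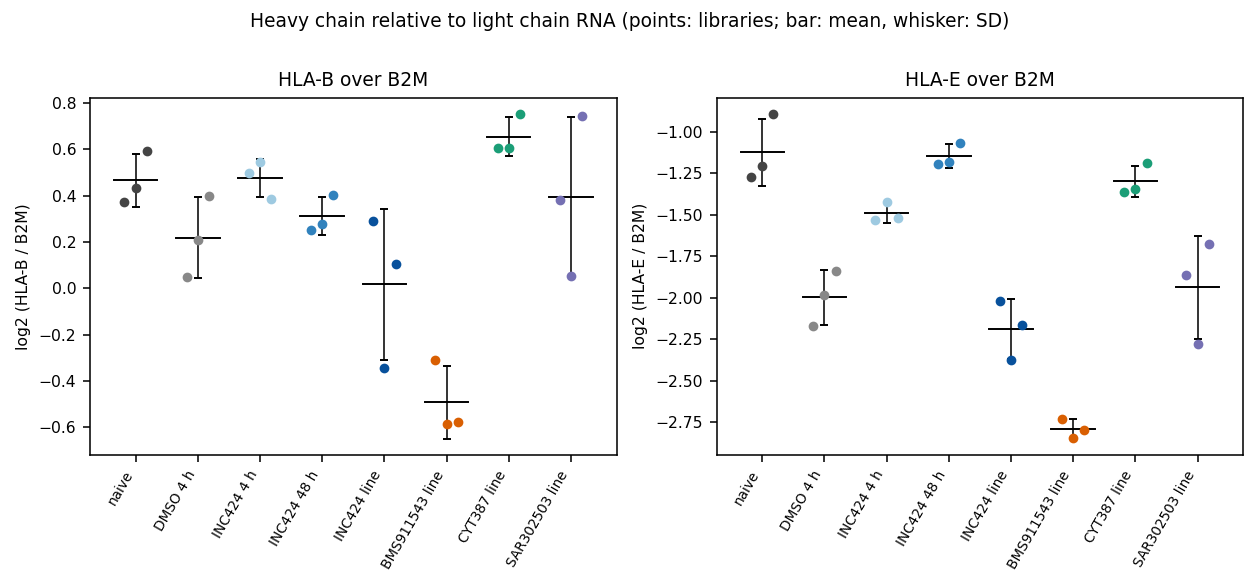
Log2 ratio of the normalised counts of HLA-B (left) and HLA-E (right) to B2M in each library, with group means (bars) and SDs (whiskers). The BMS911543 line is lowest in both panels, at -0.49 and -2.79.

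Genes beside the 9 in the class I pathway were followed through lists of known members. Of 13 class I related genes and ligands, 7 were lower in the BMS911543 line than in naive cells and 0 higher, beside 14.2% of all genes lower and 10.4% higher, with a median of -0.68 against 0.02 for all genes. They include MR1, which presents vitamin metabolites to mucosal T cells (-1.10), and HLA-G, another non-classical heavy chain (-0.93), which was picked after its value was seen. In DMSO cells, with 26.0% of all genes passing, 7 were also lower and 0 higher than in naive cells (median -0.71), among them MR1 (-1.11) and FCGRT, the neonatal Fc receptor heavy chain, which also pairs with B2M (-1.10). At 48 h of INC424 against DMSO, with 33.9% of all genes passing, 7 were higher and 2 lower (median 0.91). FCGRT rose by 1.59, from a mean of 2520 to 7560, and HLA-G by 1.07, while ULBP1, a ligand of the receptor NKG2D, fell by 1.82 on the log2 scale. Thus FCGRT and HLA-G rose in the comparison in which the heavy chains rose. Windows shared with other genes were counted only for the 9 genes. Part of the reads of HLA genes in this list, such as HLA-G, may come from the heavy chains, which was not tested. The counts and medians of the list thus need not describe genes that moved separately from the heavy chains.

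The 15 genes of peptide supply, the proteasome subunits, activators and trimming peptidases, moved both ways. In the INC424 line 4 were higher and 4 lower than in naive cells (median 0.29), beside 22.5% of all genes, with PSMB10, an immunoproteasome subunit, at -1.13, PSMB6, a subunit of the standard proteasome, at 0.72 and ERAP1, which trims peptides in the endoplasmic reticulum, at -0.75. ERAP1 was lower than in naive cells in each of the BMS911543, CYT387, INC424 and SAR302503 lines, at -0.89, -0.62, -0.75 and -0.67. At 48 h of INC424 against DMSO 2 of the 15 rose and 4 fell, beside 33.9% of all genes. ERAP2 rose by 1.47 and PSME3, a subunit of a nuclear proteasome activator, fell by 1.34 on the log2 scale.

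Of 8 helpers of loading in the endoplasmic reticulum, 5 were lower on average over the 4 lines than in naive cells and 0 higher (median -0.37), beside 21.8% of all genes. UGGT1, which checks glycoprotein folding, was at -0.84 and PDIA3, a disulphide isomerase of the loading complex, at -0.49. CANX, the chaperone calnexin, was at -0.43. In DMSO cells 2 of the 8 were lower than in naive cells, beside 26.0% of all genes. After 4 h of INC424 0 of 8 passed against DMSO, beside 8.37%.

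Among 20 factors of class I and interferon control, 4 h of INC424 gave 3 higher and 3 lower against DMSO, beside 8.37% of all genes. IRF1, an activator of class I promoters, was at -0.86, IRF9 at -0.99 and IRF2, a repressor at interferon elements, at 0.81. At 48 h against DMSO 3 were higher and 2 lower, beside 33.9%, with IRF2 at 1.21 and STAT2, a partner in the interferon-activated complex, at 0.82. Against naive cells IRF1 was lower in the BMS911543 line (-0.46), the CYT387 line (-0.74), the INC424 line (-1.34) and the SAR302503 line (-0.75). With all libraries CIITA, the class II relative of NLRC5, was at 1.46 in the CYT387 line, -3.44 in the INC424 line and -3.78 in the SAR302503 line. The CIITA value of the CYT387 line is not given without library 2, and the part of that library in it was not tested. With all libraries NLRC5 was at 0.33, -0.44 and -0.06 in these lines and passed in none. Without library 2 of the CYT387 line NLRC5 passed in the CYT387 line (0.64, adjusted p = 0.0045) and in the INC424 line (-0.44, adjusted p = 0.0153).

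Of 11 genes of the interferon signal path, SOCS3, a STAT target and feedback inhibitor, fell by 3.43 on the log2 scale at 4 h of INC424 against DMSO, and its difference at 48 h was -2.43. Against naive cells SOCS3 was at -3.12 in the BMS911543 line and at 1.04 in the SAR302503 line. In the INC424 line 6 of the 11 were lower than in naive cells and 0 higher, beside 22.5% of all genes, with the interferon receptor chains IFNAR2 at -1.43 and IFNGR2 at -1.15.

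Of the 20 interferon-induced genes some were higher and some lower in the same line, as was also so for all genes. In the BMS911543 line 3 were higher and 4 lower than in naive cells, beside 10.4% of all genes higher and 14.2% lower. IFIT2 was at 2.35 and IFIT1 at 2.17, while BST2, a membrane tether of virions, was at -1.79 and GBP2 at -1.47. In the INC424 line 4 were higher and 5 lower, beside 9.95% of all genes higher and 12.5% lower, again with IFIT1 at 2.67 and BST2 at -2.56. The heavy chains were lower in both lines. At 48 h of INC424 against DMSO 5 rose and 1 fell, beside 33.9% of all genes, and at 4 h 1 rose and 0 fell, beside 8.37%.

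Of 6 genes of the polycomb repressor, which is known to silence class I genes in some tumours, 4 fell and 2 rose at 48 h of INC424 against DMSO (median -0.57), beside 33.9% of all genes, with SUZ12, EED and EZH2 at -0.88, -0.86 and -0.76. In the BMS911543 line 0 of 6 passed against naive cells, beside 24.6%. Of 6 genes that act on class I turnover, 3 were lower and 0 higher in the SAR302503 line than in naive cells, beside 19.3% of all genes, with SYVN1, a ubiquitin ligase of the endoplasmic reticulum, at -0.47. At 48 h of INC424 against DMSO 2 of the 6 rose and 0 fell, beside 33.9%, with SYVN1 at 0.49.

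For each of the 9 genes the 3 genes with the most similar pattern over the 24 libraries were found by Pearson's r. The candidates were genes with a mean of at least 50, leaving out a gene not reported here, so a closer gene may exist. For HLA-B they were LRTM1 (0.91), HLA-C (0.90) and TPT1 (0.90), and for HLA-C they were FAM125A, TPT1 and HLA-G (0.91 each). HLA-E was nearest to GSTM2 and CEP68 (0.93 each), and HLA-F to SEMA6C (0.93) and HLA-G (0.91). Reads assigned to the wrong HLA gene may enter the values for HLA-G, which was not tested. B2M was nearest to REXO2 (0.91) and TAP1 to TPGS2 (0.86). TAP2 was nearest to PITPNB (0.82) and NLRC5 to SLC17A9 (0.89). TAPBP was nearest to CXCR4, at 0.86 over 24 libraries and 0.75 without library 2 of the CYT387 line.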

How the data were processed

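Per the labels' protocols, poly(A) RNA was cut by RNase III before library making, and reads came from an Ion Proton. Of the 24 libraries, 9 were sequenced more than once, each with a single column. The table deposited by the authors holds a normalised signal, read counts scaled by a factor of each library, not by gene length. The submitters' processing notes name the builds hg19 and GRCh37 and the tools DESeq 1.10.1, BWA 0.7.5.1 and HTSeq 0.5.3p3, with no role for any. Within each library all deposited signal values are multiples of a single number (tolerance 0.01), from which reads were recovered. For 3 libraries that number lies within 0.01 of 1. The table gives no coordinates, and promoters come from RefSeq on GRCh38.p14. How strand and reads that match several genes were treated is not given in the sources used here.

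Values were tested as log2 of the normalised count plus 1, with the genes at 10 or more in at least 3 libraries, by fitting all 8 groups at once in limma 3.58.1 under R 4.3.3, using the trended empirical Bayes option. Tests were two-sided, with Benjamini-Hochberg adjustment over all genes tested within a comparison and a threshold of 0.05. The fit was tested on simulated data. Groups share replicate numbers, but the labels tie these to no common culture or day. The deviations of same-numbered libraries correlated at over 0.1 in every pair only for the CYT387 and INC424 lines (0.10, 0.31 and 0.23). Intervals are 95% intervals of the fitted difference.

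All 9 genes are named. From each list of other pathway genes up to 4 with the largest change past the threshold in a comparison may be named, and for each of the 9 the 3 genes of most similar pattern. The genes, lists and rules were chosen with earlier results of these data known. Of 9 genes listed for class I turnover 6 were found, and 2 listed genes were matched by an older symbol. Some genes of the lists are not reported here. Other settings tried were pseudocounts of 0.5 or 10, a filter at 50 or none, scaling by TMM or by the upper quartile, edgeR 4.0.16 and DESeq2 1.42.0 on the recovered reads, a fit of just the groups compared, blocking on replicate number, a term for libraries sequenced again, empirical Bayes without trend or robust, naive cells in place of DMSO, leaving out the 4 libraries richest in squamous marker RNA and leaving out each library in turn.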

Additional observations from a re-analysis of the deposited data

Results flagged for a closer look

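Differences between persistent lines that passed the test were picked out for a closer look, since they set lines grown in different inhibitors directly against each other. Each inhibitor has 1 line, so inhibitor and line cannot be told apart. They number 28 of the 54 values over 6 pairs of lines and 9 genes, beside 12.7% to 31.4% of all genes in these pairs. Against the CYT387 line the BMS911543 line differed by log2 -0.93 in HLA-B, -1.02 in HLA-C, -1.27 in HLA-E and -1.04 in HLA-F. Against the INC424 line it differed by -0.59 in HLA-B, -0.68 in HLA-E, 0.41 in TAP1 and 0.67 in TAPBP. Against the SAR302503 line it differed by -1.24 in HLA-B, -1.12 in HLA-C, -1.21 in HLA-E, -0.86 in HLA-F, -0.36 in B2M, -0.47 in TAP1 and 0.59 in TAPBP.

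The CYT387 line differed from the INC424 line by 0.70 in HLA-C, 0.59 in HLA-E, 0.76 in HLA-F, 0.86 in TAPBP and 0.78 in NLRC5. It differed from the SAR302503 line by -0.58 in B2M, -0.75 in TAP1 and 0.78 in TAPBP. The INC424 line differed from the SAR302503 line by -0.65 in HLA-B, -0.80 in HLA-C, -0.53 in HLA-E, -0.58 in HLA-F and -0.87 in TAP1.

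Cells given INC424 for 48 h also differed from those given it for 4 h in 5 of 9 genes, beside 14.7% of all genes, by 0.51 in HLA-B, 0.69 in HLA-C, 1.02 in HLA-E, 0.77 in HLA-F and 0.67 in B2M. Exposure to INC424 and time in culture cannot be told apart there. Groups hold 3 libraries each, so no single library was tested against the others of its group.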

How the results depend on the processing

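Of the 144 member differences (9 genes in 16 comparisons) 70 passed, and 40 of these passed under every alternative run. The other 30 were lost in at least 1, and 25 of them in an alternative other than leaving out 1 library. Where the cause of a change is not given by the alternative itself, the cause was not tested. With naive cells in place of DMSO, HLA-B at 48 h of INC424 changed from a rise to -0.15 and HLA-E to -0.015, neither passing, and 2 genes passed in place of 6. With only the groups compared, genes that passed numbered 0 for the CYT387 line against naive cells (3.37% of all genes) and 0 against the SAR302503 line (3.51%). They numbered 1 for the CYT387 against the INC424 line (7.51%), 1 for the mean of the lines against naive cells (14.3%) and 4 for INC424 at 4 h against DMSO (29.8%). Without the 4 libraries richest in squamous marker RNA, the count was 2 for the SAR302503 line against naive cells (35.2% of all genes), 6 for the mean of the lines (34.6%), 4 for INC424 at 4 h (21.8%) and 6 for the CYT387 against the SAR302503 line (38.2%). A filter at 50, edgeR and DESeq2 each gave 2 for the SAR302503 line against naive cells (24.4%, 18.8% and 22.2% of all genes). Leaving out each library in turn gave counts of 3 to 6 for the INC424 line against naive cells, 1 to 2 for the SAR302503 line, 2 to 5 for the mean of the lines, 1 to 2 for INC424 at 4 h against DMSO and 2 to 5 for the BMS911543 against the INC424 line.

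With the replicate block no call changed between the CYT387 and INC424 lines, the pair in which same-numbered libraries deviated together, although not every library there correlated best with its own number. In the BMS911543 against the SAR302503 line, the block lost B2M (-0.36, adjusted p = 0.0525) and TAPBP (0.59, adjusted p = 0.0511), leaving 5 of 7 calls, and it changed no other call.

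Upper-quartile scaling moved the median of all genes to 0.12 for the BMS911543 against the CYT387 line and to -0.14 for the CYT387 against the INC424 line. The number of all genes that passed moved by over 1.5 times in 10 of the 16 comparisons with only the groups compared, in 10 without the 4 libraries and in 5 without library 2 of the CYT387 line. For the CYT387 line against naive cells it was 590 with only the groups compared and 4501 in the fit of all groups, and for INC424 at 4 h against DMSO 5190 and 1687. The lowest normalised count of the 9 genes in any library was 1314, and each group holds 3 libraries. What limits the precision most was not tested.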
